A study of Homo sapiens with 60 samples.

Results

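The libraries described here come from HepG2 cells, an established human liver tumour line. The cells were kept for 24 h with a 70% ethanol extract of Angelicae Gigantis Radix, the root of Korean angelica. These libraries are 3 of the 60 RNA-seq libraries of the study, 1 at each dose of 20 (Low), 100 (Medium) and 500 (High) µg/mL. Each was set against the 17 Low libraries (20 µg/mL) of the 6 extracts with 2 or 3 libraries per dose, named the Low pool below: 3 each of the water extract of the formula SDT (Sibjeondaebo-tang) and of the ethanol extracts of Poria cocos, Atractylodis Rhizoma, Glycyrrhizae Radix (licorice) and Panax ginseng, and 2 of the water extract of the formula PMT (Palmul-tang). The libraries were chosen by extract and dose, not by any measured value. The pool consists of treated cells, so a gene that every extract moves already at Low does not show against it. The study also holds 3 libraries of Paeoniae Radix, again 1 per dose, and 3 vehicle libraries (DMSO, 0.1% in the sample labels and 2% in the series text; the DMSO content of treated cultures is not given). Angelica and Paeonia share set code 11 in the labels, the pool carries codes 8, 9 and 10, and the vehicle carries C1. The labels do not say what the code marks, so the Angelica extract and its set code cannot be told apart in a comparison with the pool.

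HepG2 cells keep much of the liver's capacity to sense foreign compounds and to make lipids. The aryl hydrocarbon receptor (AhR) is a ligand-activated transcription factor that binds many plant and combustion products and switches on CYP1A1 and a small battery of conjugating enzymes. NRF2 is released from its inhibitor KEAP1 when thiol-reactive compounds modify that protein, and it then drives genes for glutathione synthesis, quinone and carbonyl reduction and drug export. SREBP2 and SREBP1 are membrane-bound factors that are processed when sterols run low and that raise the enzymes of cholesterol and fatty acid synthesis. Angelica gigas root is known for its pyranocoumarins, among them decursin.

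The Angelica libraries held 32132747 (Low), 28442201 (Medium) and 22964597 (High) expected counts, and the pool libraries 19057230 to 30527396 (median 25547847). Mitochondrial transcripts took 15.99% to 16.8% of the counts in Angelica libraries and 15.1% to 21.8% in the pool. All 11 hepatocyte-lineage markers checked, ALB, AFP, APOA1 and HNF4A among them, stood at 1 CPM (counts scaled to library size) or more in each Angelica library. Of the markers of other cell types, 1 of 9 for fibroblasts and stellate cells (PDGFRB), 1 of 7 for endothelium (PECAM1) and 2 of 9 for leukocytes (CD68 and CD14) reached that level, as did 4 of 9 for biliary and other epithelium (EPCAM, SOX9, VIL1 and KRT19, with a list sum of 640.9 to 648.6 CPM in Angelica and 627.7 to 673.5 in the pool), while COL1A2, COL3A1, DCN, KDR, TEK, PTPRC and CD163 were at 0. The root mean square log2 distance from the pool mean was 0.251 for Angelica Low, 0.274 for Medium and 0.317 for High. The 17 pool libraries, each against the other 16, gave 0.261 to 0.337, so over all genes no Angelica library lay farther out than the pool's own members.

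At High, 39 genes differed from the Low pool, 18 higher and 21 lower, out of 16128 tested (edgeR quasi-likelihood test, Benjamini-Hochberg adjusted p under 0.05). These are 0.242% of the genes tested, 0.112% higher and 0.13% lower. By size of change the higher genes at 1 CPM or more ran CYP1A1, AKR1B10, CYP24A1, AKR1C2, CPLX2, GCLM, AKR1C1, TSKU and NQO1; 9 of the 18 are on the NRF2 list. The largest changes among the lower genes were those of SGK1, a kinase induced by corticosteroids, FST (follistatin), the fatty acid carrier FABP1, and enzymes of cholesterol and fatty acid synthesis, ACSS2, MVD and HMGCS1 first among them. In all 39 the High library lay outside the range of the 17 pool libraries. The calls were made on these same libraries, so this is a description and no further support. Over all genes the High library lay above the pool in 7.86% and below it in 8.68%. The Angelica libraries have no replicates: the error comes from the spread of the 17 Low libraries, including that between extracts, and the lone library is assumed to vary like them. A rank comparison of 1 library with 17 could not go below an exact one-sided p = 0.0556. The count was 65 without Poria Low replicate 3, and between 22 (without ginseng) and 73 (without Poria) when the Low libraries of 1 extract were left out.

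**Figure D1:**
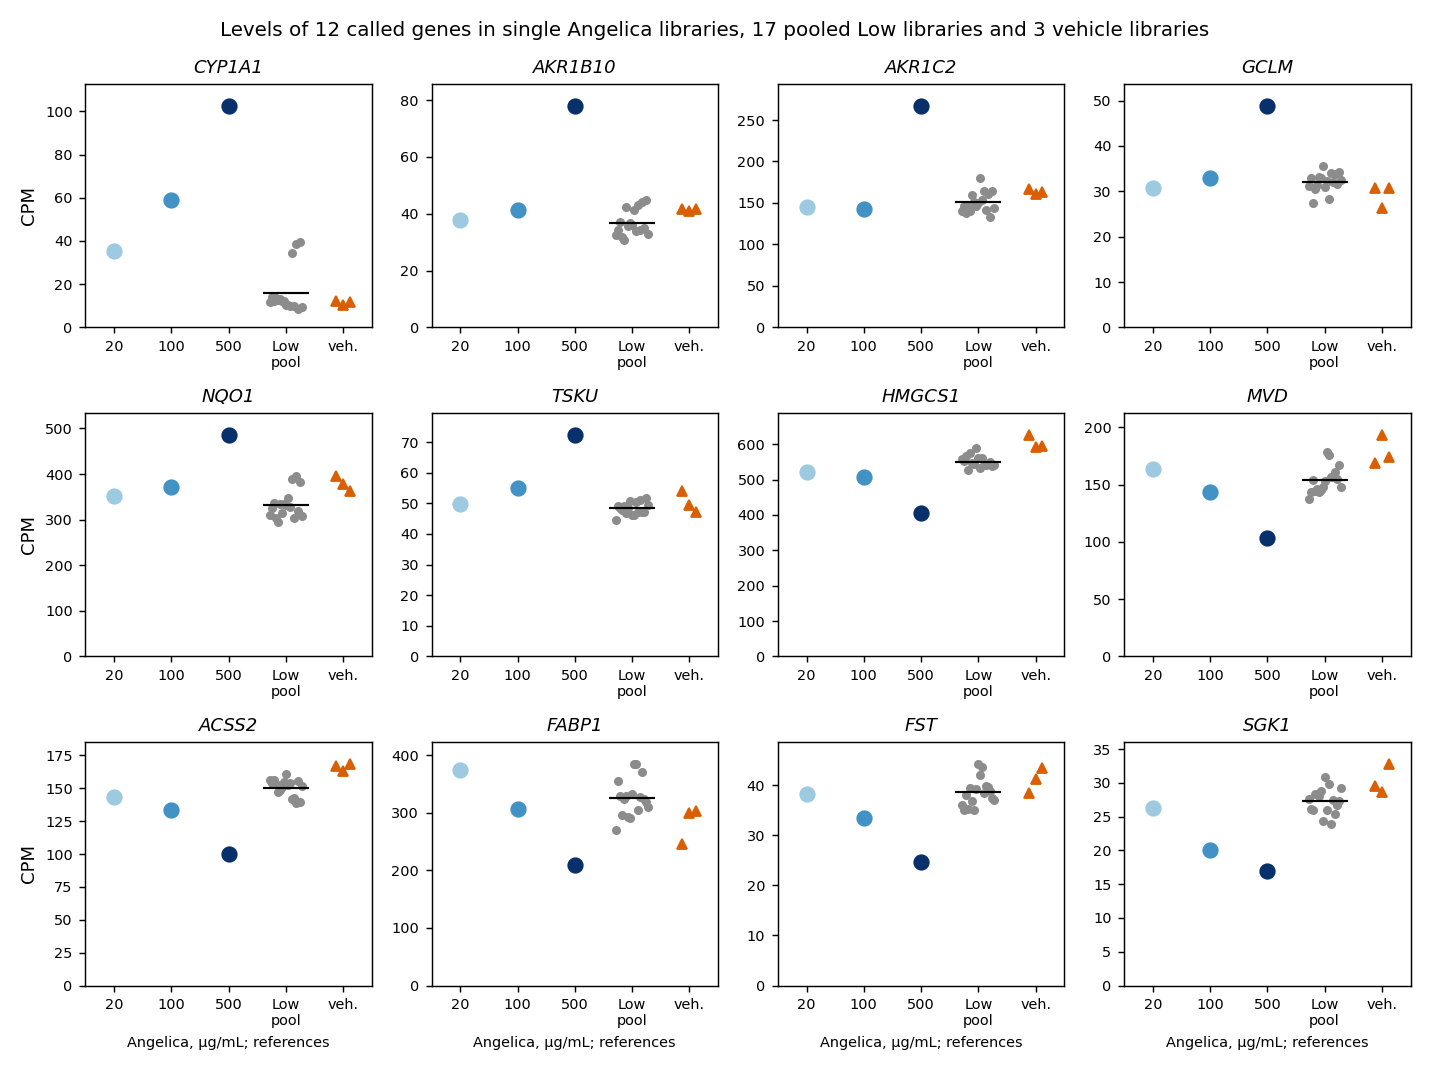
CPM (vertical axes, from 0, 1 panel per gene) of 12 genes called at Angelica High, in the single Angelica libraries at 20, 100 and 500 µg/mL (blue), in the 17 Low pool libraries (grey, with their mean as a bar) and in 3 vehicle libraries (orange triangles). CYP1A1 stood at 35.4, 58.7 and 102.6 CPM over the 3 Angelica doses, and the 3 highest grey points in its panel are the Glycyrrhiza libraries; the 6 lower genes, from HMGCS1 on, have their lowest point at 500 µg/mL.

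CYP1A1 encodes a cytochrome P450 that oxidises polycyclic hydrocarbons and is the classic readout of AhR activity; it lies at chr15:74719542-74725610 on the minus strand of GRCh38. It measured 35.4 CPM in Angelica Low, 58.7 in Medium and 102.6 in High, against a lowest of 8.60, a median of 12.1 and a highest of 39.3 CPM in the pool. The 3 Angelica values were ordered by dose, and Medium and High lay above every pool library. The log2 change at High was 2.650 (SE 0.46, adjusted p = 0.00721 by edgeR); at Medium it was 1.85 and at Low 1.12, neither past the threshold. The 3 Glycyrrhiza Low libraries were the upper end of the pool, at a mean of 37.5 CPM, while the means of the other 5 extracts ran from 9.42 to 13.9. With those 3 libraries left out, a setting singled out after their CYP1A1 values were seen and one that both raises the change and narrows the spread of this gene, CYP1A1 was called at each dose by the same edgeR test, with log2 changes of 1.63 at Low (adjusted p = 1.38e-06), 2.36 at Medium (adjusted p = 2.41e-10) and 3.17 at High (adjusted p = 1.34e-13). Vehicle libraries held 10.5 to 12.02 CPM, and Paeonia 10.7, 14.1 and 51.2 CPM from Low to High. Against Angelica Low and Paeonia Low, the Low libraries of the same set code, the High value was 2.40 on the log2 scale with adjusted p = 0.179.

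Of the 12 AhR targets listed, 11 passed the filter on low counts, and 2, CYP1A1 and NQO1, were called higher at High, beside 0.112% of all genes. At High 6 of the 11 lay above all 17 pool libraries and 0 below, where 7.86% and 8.68% of all genes did. The median log2 change of the 11 was 0.08 at Low, 0.16 at Medium and 0.20 at High, beside -0.01 over all genes at High. UGT1A1, which glucuronidates bilirubin and shares most exons with the rest of its locus, was at 15.9, 17.2 and 24.0 CPM from Low to High, against 10.9 to 19.0 (median 13.4) in the pool, with a log2 change of 0.79 at High (SE 0.19, adjusted p = 0.0830). ALDH3A1, an aldehyde dehydrogenase, was at 1.93, 2.43 and 3.24 CPM, against 0.658 to 3.06 (median 1.15), and its change did not pass at High (1.22, adjusted p = 0.424). CYP1A2, the liver's main caffeine-metabolising P450 and a weakly expressed gene here, was at 0.214, 0.452 and 0.298 CPM, against 0 to 0.224. For each of these 3 genes the Angelica High value lay above every pool library. Without the Glycyrrhiza libraries the log2 change at High was 0.89 for UGT1A1 and 1.58 for ALDH3A1. That of CYP1A2 in the mean of the 3 doses was 2.52. This setting was singled out after the CYP1A1 values of those libraries were seen, so these values are a description and no further support. The amino acid transporter SLC7A5 was at 751.2, 768.9 and 828.1 CPM from Low to High, against 646.5 to 768.3 in the pool (log2 change 0.20 at High, adjusted p = 0.256). TIPARP, a feedback inhibitor of AhR, was at 23.9, 23.7 and 22.3 CPM, against 20.96 to 24.3, and LPCAT2, a lysophospholipid acyltransferase, at 9.08, 8.69 and 9.33 CPM, against 8.77 to 11.5. AHRR, the AhR repressor, was at 0.275, 0.452 and 0.468 CPM, against 0.271 to 0.628, and UGT1A6, which conjugates planar phenols, at 0.520, 0.799 and 0.256 CPM, against 0 to 0.626. Neither these 4 genes nor SLC7A5 passed the test at any dose. NFE2L2, the gene of NRF2 itself, was at 170.5, 187.9 and 197.7 CPM from Low to High, against 166.7 to 201.5 in the pool, so its High value stayed inside the pool's range.

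The NRF2 list gave the largest group of higher genes at High: 9 of the 24 members that passed the filter (of 25 listed) were called higher and 0 lower. The median log2 change of the 24 was 0.30 at High, beside 0.06 at Low and 0.04 at Medium. Above all 17 pool libraries lay 17 of the 24 at High, 1 at Medium and 0 at Low. Over all genes 0.112% were called higher at High, and 7.86%, 2.99% and 3.08% lay above the pool at High, Medium and Low. All 9 calls rest on the 500 µg/mL library. At 100 µg/mL 0 of all 16128 genes tested were called, so the lack of calls there is not particular to this list. AKR1B10, which reduces retinal and lipid aldehydes, was at 37.7, 41.2 and 78.0 CPM over the doses, against 30.7, 35.8 and 45.0 (lowest, median, highest) in the pool. Its log2 change was 1.08 (SE 0.14, adjusted p = 0.00017 by edgeR), and only the High library lay outside the pool. AKR1C2, a 3-alpha-hydroxysteroid dehydrogenase, was at 145.2, 142.9 and 267.2 CPM, against 133.0, 146.8 and 180.3. It changed by 0.83 (SE 0.10, adjusted p = 7.26e-05), and its neighbour AKR1C1, which inactivates progesterone, by 0.59 (SE 0.09, adjusted p = 0.00215), at 256.7, 231.0 and 413.7 CPM, against 247.1, 273.4 and 340.9. These 2 genes are near-identical copies, so reads may be split between them and their separate values are uncertain. AKR1C3, another copy, which forms androgens and prostaglandins, was at 36.1, 28.9 and 32.5 CPM, against 28.5 to 38.9, and did not pass (-0.01).

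GCLM, the regulatory subunit of the enzyme that limits glutathione synthesis, was at 30.7, 33.0 and 48.8 CPM, against 27.3, 32.4 and 35.6 in the pool (log2 change 0.61, SE 0.09, adjusted p = 0.000955). NQO1, which reduces quinones and answers to both NRF2 and AhR, was at 351.7, 371.0 and 485.8 CPM, against 294.2, 328.3 and 395.9 (0.55, adjusted p = 0.0255). PIR, an iron-binding nuclear protein (0.52), ABCC3, which exports glucuronides across the basolateral membrane (0.46), SRXN1, which repairs oxidised peroxiredoxins (0.39), and HMOX1, which degrades heme (0.34), were called as well. SRXN1 at 101.4 CPM in High lay within the vehicle libraries (94.9 to 102.4 CPM) and did not pass with vehicle as the reference. HMOX1 was at 68.2, 72.7 and 82.4 CPM, against 59.1, 65.1 and 69.6, and was the member of this list whose Medium library lay above the whole pool. Among those that did not pass, TXNRD1, the cytosolic thioredoxin reductase, stood at 178.1 CPM in High against 117.1 to 151.4 in the pool (0.39, adjusted p = 0.0771). Its log2 change was 0.42 without the Glycyrrhiza libraries, a setting chosen after values were seen. GCLC, the catalytic partner of GCLM, stood at 86.5 against 68.1 to 77.1 CPM (0.26, adjusted p = 0.0771), and the apical exporter ABCC2 at 409.99 against 291.7 to 358.5 CPM (0.33, adjusted p = 0.0597). PRDX1, a peroxiredoxin, was at 279.5, 270.2 and 262.2 CPM over the doses, against 217.8 to 307.6, inside the pool's range. Angelica High lay below Paeonia High in AKR1B10 (78.0 and 87.7 CPM), GCLM (48.8 and 49.5) and SRXN1 (101.4 and 115.8), and above it in AKR1C2 (267.2 and 170.5). Of the called members, NQO1 and HMOX1 lost their calls without SDT and without ginseng, and NQO1 also without Atractylodis. NQO1 and SRXN1 lost theirs with the Low libraries of replicate number 1 alone. Against Angelica Low and Paeonia Low, NQO1, PIR, HMOX1 and SRXN1 did not pass. The other called members kept their calls in these settings.

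**Figure D2:**
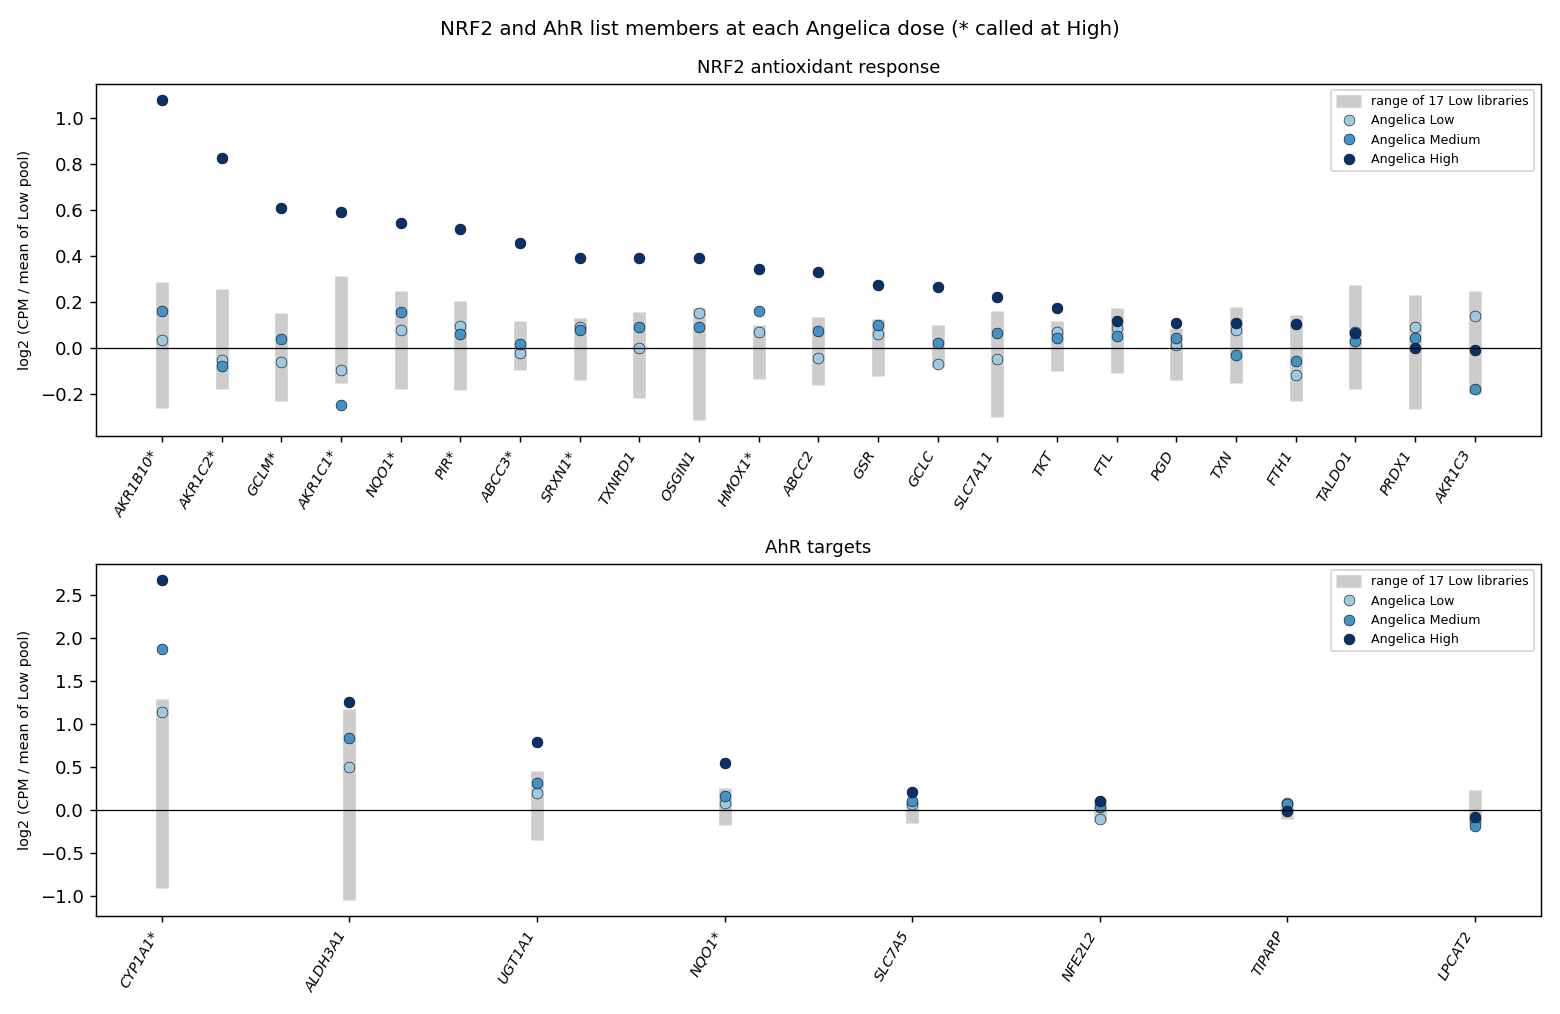
Members of the NRF2 list (upper panel) and of the AhR list (lower panel) with a pool mean of 1 CPM or more: log2 of CPM over the Low pool mean (vertical axis) for Angelica Low, Medium and High (light to dark blue points), with the range of the 17 Low libraries as a grey bar and an asterisk for genes called at High. In the upper panel the High points of 17 of the 23 members drawn stand above the bars while most Low and Medium points lie within them; in the lower panel all 3 doses of CYP1A1 stand above 0.

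The promoters of 2 of these genes hold letters that match short cores known for their regulators, and are shown for that reason. Whether a regulator binds these stretches was not tested. Sequences are from the RefSeq promoter table (GRCh38.p14), both on the minus strand and printed 5′ to 3′ in transcript sense, at chr15:74725551-74725615 for CYP1A1 and chr1:93909431-93909494 for GCLM. Capitals mark the letters of the xenobiotic response element core, GCGTG, in CYP1A1. In GCLM they mark, on the opposite strand, those of the antioxidant response element core, TGACNNNGC.
CYP1A1: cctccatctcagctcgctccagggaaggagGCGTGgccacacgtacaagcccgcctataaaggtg
GCLM: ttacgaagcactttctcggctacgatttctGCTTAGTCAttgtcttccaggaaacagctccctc
Searched on both strands in the 250 bases before the start, GCGTG occurred in 51.8% and TGACNNNGC in 15.9% of the 11086 tested genes with a promoter in the table. Of the 13 higher genes with a promoter there, 3 held GCGTG and 1, GCLM, held TGACNNNGC. The letters of the GCLM match start 34 bases before the transcription start and those of the CYP1A1 match 57 bases before it.

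The remaining higher genes lie outside both lists. TSKU (tsukushi), a secreted small leucine-rich proteoglycan that the liver releases, had the smallest adjusted p of all genes at High: it was at 49.8, 54.9 and 72.4 CPM, against 44.5, 48.4 and 51.7 in the pool (0.58, SE 0.06, adjusted p = 4.75e-05), and Medium as well as High lay above the pool. CYP24A1, which breaks down the active form of vitamin D, was at 10.7, 12.5 and 19.3 CPM, against 8.39, 11.0 and 11.9 (0.86, SE 0.13, adjusted p = 0.00238), again with Medium and High above the pool. VDR, the vitamin D receptor gene, was at 1.74, 1.11 and 1.79 CPM, against 1.03 to 2.67, with no difference called. CPLX2, complexin 2, a protein of regulated exocytosis, was at 155.9, 184.7 and 256.9 CPM, against 135.2, 154.1 and 196.5 (0.68, adjusted p = 0.0143). PTGR1, which reduces prostaglandins and leukotriene B4 (0.52), ALDH1A1, a retinal dehydrogenase (0.49), MGST1, a microsomal glutathione transferase (0.41), and UGDH, which makes the glucuronic acid donor (0.36), were called too. ALDH1A1 at 135.6 CPM in High lay above the pool (87.2 to 107.7), and the vehicle libraries held 121.2 to 126.1. BORCS7-ASMT, a readthrough annotation, was at 0.681 CPM in High and at 0 in each of the other Angelica and pool libraries; it passed the low-count filter through that library alone and gets no fold change.

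Cholesterol synthesis was the largest group of lower genes at High, with 6 of the 24 members that passed the filter (of 25 listed) called lower and 0 higher. Over all genes 0.13% were called lower. All 24 had a negative log2 change at High, with a median of -0.23, beside 0.02 at Low and -0.05 at Medium; 20 of the 24 lay below all 17 pool libraries at High, against 8.68% of all genes. At Medium 5 lay below and 0 above all 17, and at Low 2 below and 2 above (DHCR7 and HSD17B7). Over all genes 3.64% lay below and 2.99% above at Medium, and 3.01% below and 3.08% above at Low. HMGCS1, which makes HMG-CoA for the pathway, was at 520.1, 506.7 and 406.0 CPM, against 527.2, 546.6 and 590.3 in the pool (-0.44, SE 0.06, adjusted p = 0.000456 by edgeR). All 3 Angelica libraries lay below the pool, and High lay below the other 2 by more than the pool's whole range. MVD, the decarboxylase at the end of the mevalonate steps, was at 164.0, 143.7 and 103.9 CPM, against 137.2, 153.1 and 178.3 (-0.57, SE 0.11, adjusted p = 0.0143). TM7SF2, a sterol reductase (-0.43), FDPS, which joins the isoprenoid units (-0.40), LSS, which makes the first sterol (-0.37), and MSMO1, a sterol methyl oxidase (-0.35), were the other called members. MSMO1 did not pass without SDT Low replicate 1 (adjusted p = 0.0632), SDT Low replicate 2 (adjusted p = 0.0621) or ginseng Low replicate 3 (adjusted p = 0.0603). Without all 3 ginseng Low libraries MVD, TM7SF2, FDPS and MSMO1 lost their calls, which left HMGCS1 and LSS called of the 6.

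SREBF2, the gene of SREBP2, was at 206.1, 205.6 and 203.7 CPM, against 192.3 to 217.0, a log2 change of -0.01. Angelica High held less MVD than Paeonia High (103.9 and 230.7 CPM) and less HMGCS1 (406.0 and 563.9 CPM).

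Fatty acid synthesis genes lay lower as well, with 3 of 16 that passed the filter (of 18 listed) called lower and 0 higher. Their median was -0.24 at High, -0.04 at Medium and -0.01 at Low, and 11 of 16 lay below all 17 pool libraries at High. Over all genes 0.13% were called lower at High and 8.68% lay below the pool. ACSS2, which makes cytosolic acetyl-CoA from acetate, was at 143.2, 133.2 and 100.2 CPM, against 138.8, 152.1 and 160.5 (-0.59, SE 0.07, adjusted p = 0.00017), with Medium and High below the pool. FADS2, the delta-6 desaturase, was at 356.2, 331.1 and 262.7 CPM, against 328.6, 353.1 and 391.7 (-0.44, adjusted p = 0.00945). LPIN1, a phosphatidate phosphatase, was at 46.4, 42.4 and 36.2 CPM, against 42.8, 46.2 and 48.4 (-0.34, adjusted p = 0.0255). SCD, the stearoyl-CoA desaturase, stood at 2758 CPM in High against 2977 to 3564 (-0.30, adjusted p = 0.0551), and SREBF1 at 78.7 against 87.4 to 103.7 CPM (-0.27, adjusted p = 0.221). FASN, the fatty acid synthase, gave -0.13, with its High value inside the pool's range.

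**Figure D3:**
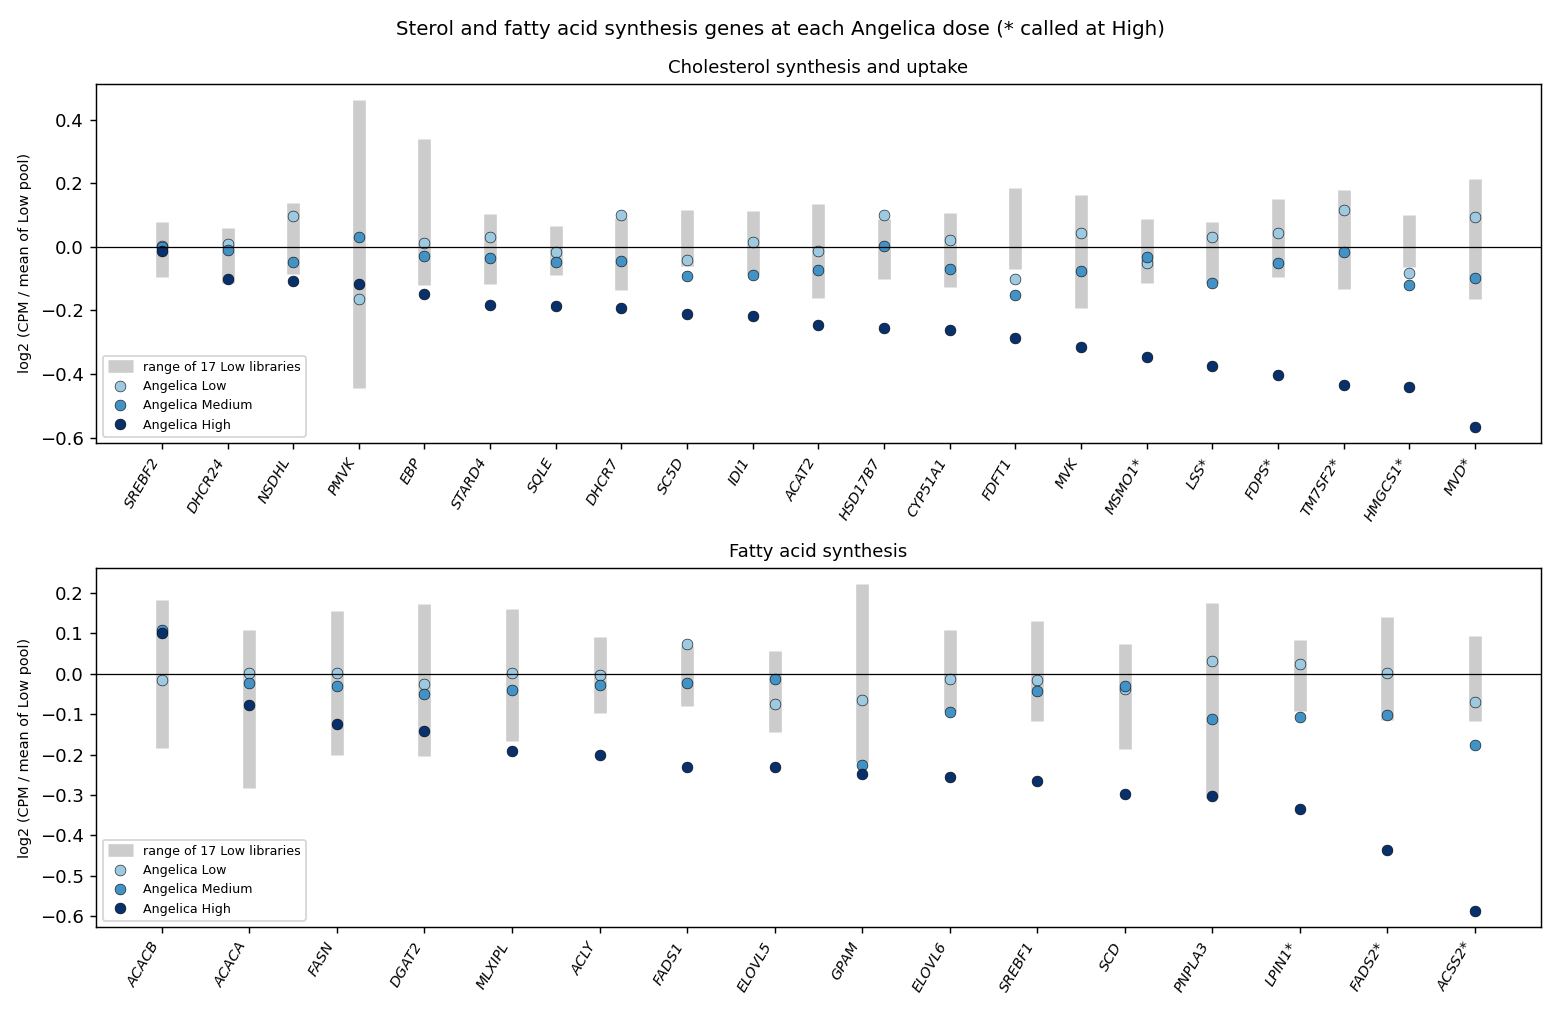
Members of the cholesterol list (upper panel) and of the fatty acid synthesis list (lower panel): log2 of CPM over the Low pool mean (vertical axis) for the 3 Angelica doses (light to dark blue), the range of the 17 Low libraries as a grey bar, and an asterisk for genes called at High. The High points lie below the bars in 18 of the 21 cholesterol and in 11 of the 16 fatty acid members drawn, while the Low and Medium points mostly lie within them.

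The proximal promoters of the 6 called cholesterol genes are shown because each holds a CCAAT box, the core bound by the general factor NF-Y, which is known to act beside SREBP on sterol genes. This motif was chosen after the values were seen. Sequences are from the RefSeq promoter table (GRCh38.p14), 5′ to 3′ in transcript sense, with CCAAT or its reverse complement ATTGG in capitals. They lie at chr5:43313478-43313542 (minus) for HMGCS1, chr16:88663142-88663206 (minus) for MVD, chr1:155308785-155308849 (plus) for FDPS, chr21:46228890-46228954 (minus) for LSS, chr11:65111768-65111832 (plus) for TM7SF2 and chr4:165327605-165327668 (plus) for MSMO1.
HMGCS1: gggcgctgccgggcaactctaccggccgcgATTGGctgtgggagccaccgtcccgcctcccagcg
MVD: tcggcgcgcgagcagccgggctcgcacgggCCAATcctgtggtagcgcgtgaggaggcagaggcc
FDPS: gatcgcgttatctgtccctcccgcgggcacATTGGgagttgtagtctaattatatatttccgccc
LSS: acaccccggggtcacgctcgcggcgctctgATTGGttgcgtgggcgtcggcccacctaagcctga
TM7SF2: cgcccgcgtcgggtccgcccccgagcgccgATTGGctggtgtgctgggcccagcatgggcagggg
MSMO1: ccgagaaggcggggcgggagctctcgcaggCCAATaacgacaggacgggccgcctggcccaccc
CCAAT was found in 15 of the 17 list members with a promoter in the table, called or not, in 12 of 19 lower and 6 of 13 higher genes, and in 41.3% of all tested genes. GCGTG, the xenobiotic core above, was as frequent here, in 15 of the same 17, in 5 of the 6 called and in 12 of 19 lower genes. The sterol response core TCACNCCAC was in 0 of the 6, in 1 of the 17 and in 1.17% of all, which says only that these letters are not in this window.

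The other lower genes are of several kinds. SGK1 was at 26.3, 20.1 and 16.95 CPM, against 23.9, 27.5 and 30.9 (-0.69, SE 0.11, adjusted p = 0.00293), and Medium and High lay below the whole pool. The glucocorticoid receptor gene NR3C1 was at 29.5, 31.9 and 30.8 CPM, against 28.3 to 37.3, and FKBP5, another corticosteroid-induced gene, at 122.7, 131.5 and 139.7, against 116.7 to 132.2, where High lay above the pool (0.14, adjusted p = 0.492). FST, which binds and neutralises activins, was at 38.2, 33.5 and 24.7 CPM, against 35.0, 38.5 and 44.3 (-0.65, SE 0.11, adjusted p = 0.0047), again with Medium and High below. FABP1 was at 374.3, 306.2 and 208.7 CPM, against 270.6, 324.5 and 384.6 (-0.64, SE 0.14, adjusted p = 0.0349); Medium lay within the pool. Its call was lost, with adjusted p between 0.0501 and 0.0567, when any of SDT Low replicate 2, Atractylodis Low replicate 2, ginseng Low replicate 1 or ginseng Low replicate 2 was left out. It was the single member of the PPAR alpha list called, out of 19.

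CCN2 (CTGF), a matrix protein induced through YAP and TGF-beta, was at 126.8, 119.3 and 90.2 CPM, against 109.3, 124.1 and 134.3 (-0.45, adjusted p = 0.0204). LYZ (lysozyme) was at 1368, 1238 and 904.8 CPM, against 1089, 1207 and 1311, so its Low value lay above the pool and its High value below it (-0.42, adjusted p = 0.021). SERPINA11, a liver serpin (-0.44), PAQR9, a membrane receptor-like protein (-0.40), TP53INP2, an autophagy factor (-0.38), LIPG, endothelial lipase (-0.35), PRKAR1A, a regulatory subunit of protein kinase A (-0.33), TFPI, which inhibits the tissue factor pathway of clotting (-0.31), and the pseudogene GOLGA6L5P (-0.55), whose copies may share reads, complete the lower genes. SERPINA11 did not pass without SDT Low replicate 2 (adjusted p = 0.0567) or Atractylodis Low replicate 2 (adjusted p = 0.0507). TP53INP2 did not pass without SDT Low replicate 1 (adjusted p = 0.0525), SDT Low replicate 2 (adjusted p = 0.0558) or ginseng Low replicate 3 (adjusted p = 0.0502). SERPINA11 at 64.7 CPM in Angelica High lay within the vehicle libraries (62.7 to 68.2), below the pool (81.7 to 98.2).

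**Figure D4:**
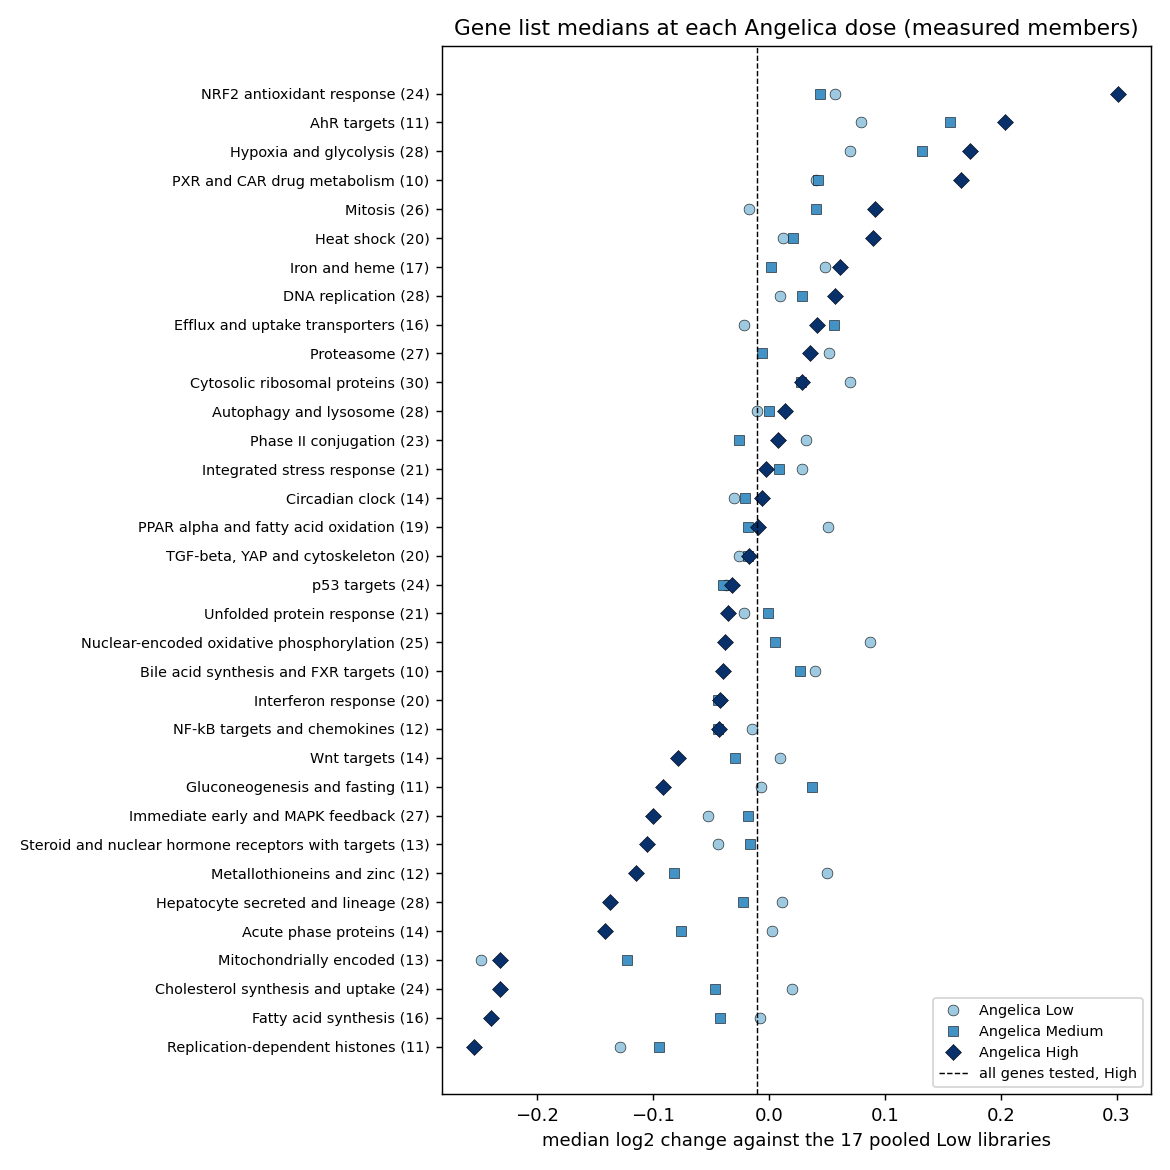
Median log2 change against the 17 pooled Low libraries (horizontal axis) of each gene list with 10 or more measured members (rows, number measured in brackets) at Angelica Low, Medium and High (light to dark blue); the dashed line is the median of all genes at High. The NRF2 list stands at 0.30 and the cholesterol and fatty acid lists at -0.23 and -0.24 at High, each near 0 at Low and Medium.

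No other list held more than 1 called gene in either direction, but some had shifted medians. The summed level of the 11 hepatocyte markers was 64295 CPM in Angelica Low, 63245 in Medium and 58163 in High, against 62203 to 67005 (median 64473) in the pool, so High lay below all 17. SERPINA1 (alpha-1-antitrypsin), at 12945, 12070 and 10181 CPM over the doses, was the member with the largest difference in CPM between High and Low. CPM in bulk RNA is scaled to the library's counts, so neither cell number nor RNA per cell was measured. Of the 28 hepatocyte secreted and lineage genes 0 were called, beside 0.242% of all genes, and the median was -0.14. At High 9 lay below all 17 pool libraries and 1 above, where 8.68% and 7.86% of all genes did. The 11 replication-dependent histone genes had the lowest median at High of the lists with 10 or more members, -0.25. Of these genes 0 were called and 5 lay below all 17 pool libraries, where 8.68% of all genes did. The list's median was -0.13 at Low and -0.10 at Medium. The acute phase list also had a median of -0.14 with 0 of 14 called. Whether these levels have a part in the lower lipid genes was not tested. In the hypoxia and glycolysis list 0 of 28 were called, yet 13 lay above all 17 pool libraries at High and 12 at Medium, against 7.86% and 2.99% of all genes, and the medians were 0.07, 0.13 and 0.17 from Low to High. The glucose transporter SLC2A3 of this list was at 174.8, 207.1 and 202.2 CPM, against 114.3, 160.7 and 182.5 in the pool (0.38 at High, SE 0.15, adjusted p = 0.408). The unfolded protein response (21 members), integrated stress response (21), p53 (24), DNA replication (28) and mitosis (26) lists had 0 called genes in either direction, with medians at High of -0.04, -0.0023, -0.03, 0.06 and 0.09. Mitochondrially encoded genes, 13 in all, had medians of -0.25, -0.12 and -0.23 from Low to High with 0 called.

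At Medium, 0 of 16128 genes passed (0%), with 394 at an unadjusted p under 0.05 and a smallest adjusted p of 0.16 by edgeR; DESeq2 called 1. The Medium library lay above all 17 pool libraries in 2.99% and below them in 3.64% of genes. Of the 39 genes called at High, Medium lay above the pool in 4 of the 18 higher ones and below it in 9 of the 21 lower ones. Those choices were made on the High library and the pool, so the ratio of Medium to Angelica Low uses neither. Medium stood above Angelica Low in 12 of the 18 higher genes, where 49% of all genes did, and below it in 19 of the 21 lower genes, where 50.8% did. Among the 18, BORCS7-ASMT was at 0 CPM in both libraries, so it could lie neither above nor below. The median log2 ratio of Medium to Low was 0.08 in the higher and -0.10 in the lower genes. Medium lay below Low in AKR1C1, AKR1C2, PIR, ALDH1A1 and SRXN1 among the higher genes, and above it in MSMO1 and TFPI among the lower ones.

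At Low, the dose of the pool itself, 1 gene passed (0.0062%), with 380 at an unadjusted p under 0.05. It was ENSG00000256349 on chromosome 11, which passed the low-count filter through the Angelica Low library alone, a weakly counted gene at 0.947 CPM in Angelica Low and at 0 in Medium, High and all 17 pool libraries; among the vehicle libraries it ran from 0 to 0.841 CPM. Its call was lost when any 1 of 15 of the 17 pool libraries was left out, all but SDT Low replicate 3 and Poria Low replicate 3. The Angelica Low library lay above the pool in 3.08% and below it in 3.01% of genes.

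The mean of the 3 Angelica libraries against the pool, which High alone can carry, gave 6 calls (0.0372%), 2 higher (0.0124%) and 4 lower (0.0248%). They were CYP1A1 (1.87, SE 0.33, adjusted p = 0.0198), TSKU (0.27, adjusted p = 0.00801), SGK1 (-0.39, adjusted p = 0.00801), ACSS2 (-0.28, adjusted p = 0.00801), HMGCS1 (-0.21, adjusted p = 0.0127) and KDELR3, an endoplasmic reticulum retention receptor (-0.24, adjusted p = 0.0317), all by edgeR. At Low, TSKU (0.04), SGK1 (-0.05) and ACSS2 (-0.07) lay inside the pool's range, so their means rest on the upper doses. KDELR3 was at 26.9, 25.9 and 25.0 CPM over the doses, against 28.8, 30.3 and 33.3 in the pool, so all 3 Angelica libraries lay below the pool. It did not pass without SDT Low replicate 2, Atractylodis Low replicate 3, ginseng Low replicate 2 or ginseng Low replicate 3 (adjusted p between 0.0504 and 0.058). The count was 10 without Glycyrrhiza Low replicate 3 and 17 without all Glycyrrhiza libraries, but 3 without SDT, without Atractylodis or without ginseng. The call of CYP1A1 was lost when the Low libraries of any 1 of the other 5 extracts were left out, and that of HMGCS1 without SDT, Atractylodis or ginseng.

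Angelica High against Angelica Low, which leaves set codes aside but sets 1 library against 1, gave 2 calls (0.0124%), AKR1C2 (0.88, SE 0.15) and TSKU (0.54, SE 0.09), both higher at adjusted p = 0.0393 by edgeR. The 18 higher and 21 lower genes of the pool comparison had the same direction here, which shares the High library with it. For BORCS7-ASMT, at 0 CPM in Angelica Low and in the pool, the direction was fixed in advance. Leaving out 1 pool library, which changes only the error, gave 0 to 10 calls: 0 without Poria Low replicate 1 or Glycyrrhiza Low replicate 2 (adjusted p = 0.0527 and 0.0507 for both genes), 1 without Glycyrrhiza Low replicate 1 or ginseng Low replicate 2 (AKR1C2 kept, TSKU at adjusted p = 0.0545 and 0.0662), and 10 without Poria Low replicate 3. With Angelica Low and Paeonia Low together in place of the pool, 32 genes were called at High, 14 higher and 18 lower, and 26 of the 39 kept their call.

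The dose response, High against Low of the same extract, was set beside those of the replicated extracts in a fit of all 60 libraries. Against the mean of Atractylodis and ginseng, 2 of the 4 single-herb ethanol extracts of the pool, 0 of 16764 genes passed (0%), with 742 at an unadjusted p under 0.05 and a smallest adjusted p of 0.886 by edgeR; DESeq2 called 0, with 492 at an unadjusted p under 0.05. The result depends on the extracts chosen: against the mean of all 4, with Poria and Glycyrrhiza added, 780 genes (4.65%) differed. Set against 1 extract at a time, the Angelica response differed in 7 genes (0.0418%) from SDT, 10 (0.0597%) from PMT, 1692 (10.1%) from Poria, 0 from Atractylodis, 5481 (32.7%) from Glycyrrhiza and 0 from ginseng. These further comparisons were added after the values were seen, and a difference that misses the threshold with 1 Angelica library per dose does not show that extracts acted alike.

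CYP1A1 stood at 102.6 CPM in Angelica High and 35.4 in Angelica Low, a log2 change of 1.53. It stood at 53.4 ± 3.58 and 12.3 ± 0.501 CPM in SDT High and Low, 43.1 ± 10.7 and 11.96 ± 1.34 in Poria, 22.1 ± 3.21 and 10.8 ± 1.13 in Atractylodis, 1180.2 ± 40.8 and 37.5 ± 2.51 in Glycyrrhiza, and 12.5 ± 0.325 and 9.42 ± 0.757 in ginseng (SD, n = 3 each), and at 63.1 ± 0.608 and 13.9 ± 0.225 in PMT (SD, n = 2). The log2 changes were 2.12 in SDT, 2.18 in PMT, 1.84 in Poria, 1.04 in Atractylodis, 4.97 in Glycyrrhiza and 0.41 in ginseng, so the change in Angelica lay between those of Atractylodis and Poria, while its Low level was near that of Glycyrrhiza Low. The Angelica change was smaller than that of Glycyrrhiza by 3.44 on the log2 scale (SE 0.20, adjusted p = 4.8e-18 by edgeR), and its differences from the other 5 did not pass, the smallest adjusted p being 0.111 for ginseng.

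AKR1B10 changed by 1.05 in Angelica, against 0.66 in SDT and 0.77 in PMT at the low end and 2.51 in Glycyrrhiza and 2.69 in Poria at the high end. AKR1C2 gave 0.88 in Angelica, against 0.35 in SDT to 2.02 in Glycyrrhiza, and GCLM 0.67, against 0.44 in SDT to 1.97 in Glycyrrhiza. Of the lipid genes, MVD gave -0.66 in Angelica, against -0.46 in Poria to 0.16 in Glycyrrhiza. ACSS2 gave -0.52, against -0.68 in Poria to 0.84 in Glycyrrhiza, and HMGCS1 -0.36, against -0.31 in ginseng to -0.03 in Poria. FST gave -0.63, against -0.22 in PMT to 1.77 in Glycyrrhiza.

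**Figure D5:**
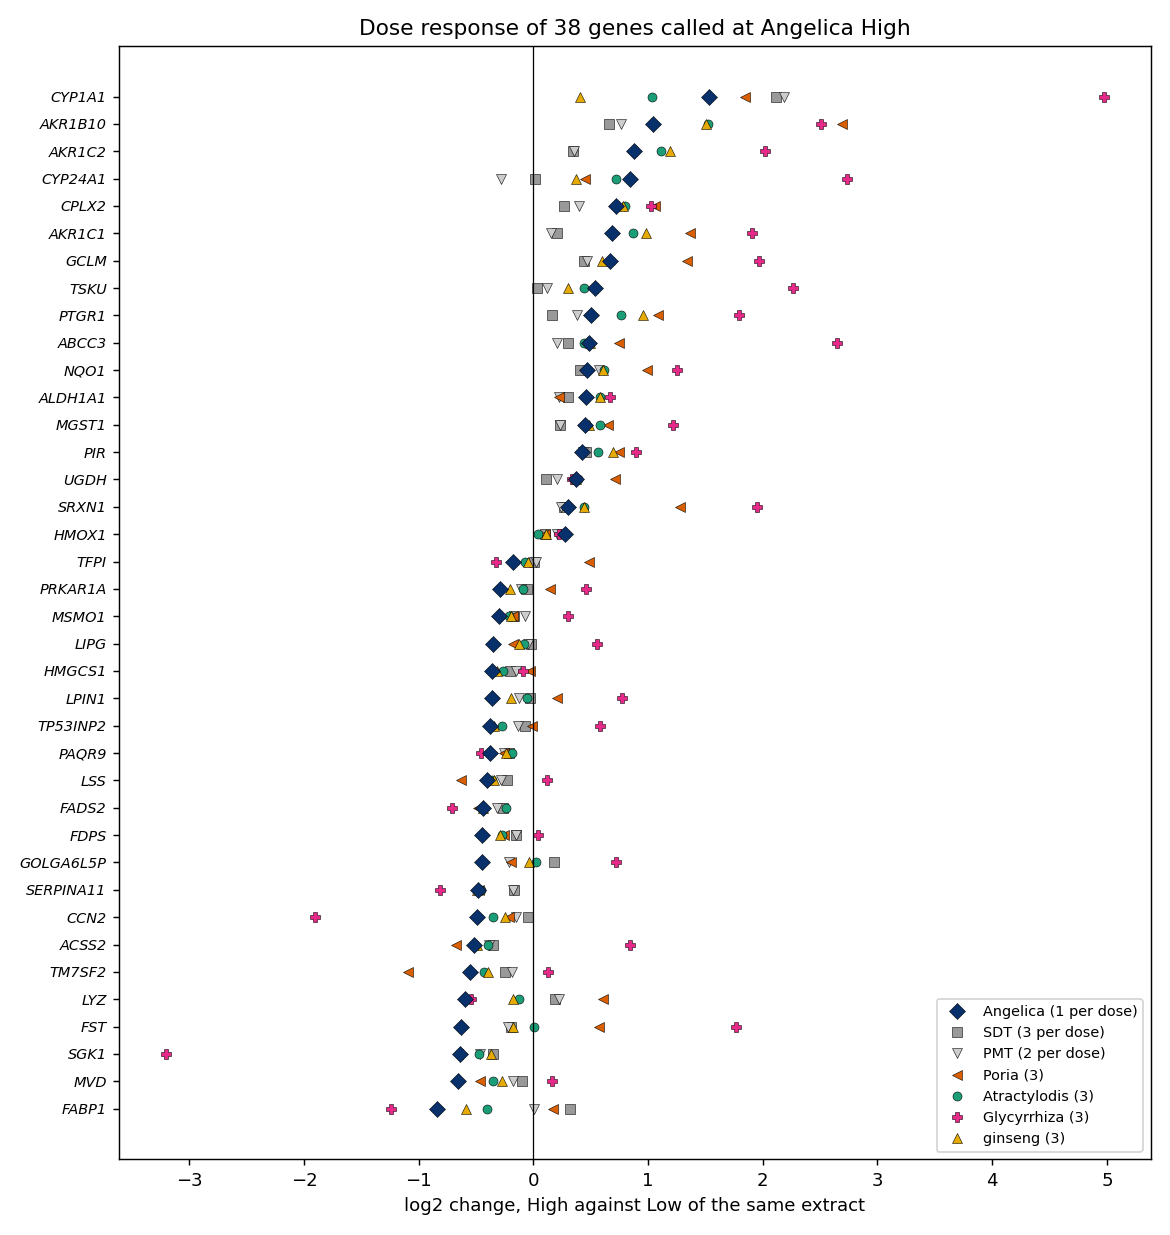
Log2 change of High against Low of the same extract (horizontal axis) for 38 of the 39 genes called at Angelica High (rows; BORCS7-ASMT is left out), in Angelica (dark blue diamonds, 1 library per dose) and in the 6 replicated extracts (other symbols, 3 libraries per dose and 2 for PMT). CYP1A1 stands at 1.53 for Angelica and at 4.97 for Glycyrrhiza, and the AKR and GCLM symbols of all 7 extracts lie right of 0.

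Beside the other extract of set code 11, Angelica High lay above Paeonia High in 15 of the 18 higher genes, all but AKR1B10, GCLM and SRXN1, and below it in all 21 lower genes, where 49.2% of all genes lay above and 50.6% below. The 39 genes were chosen on the Angelica High library, so these counts are a description. The 18 include BORCS7-ASMT, which passed the filter through Angelica High alone and was at 0 CPM in all Paeonia and vehicle libraries. FST was at 24.7 CPM in Angelica High and 100.7 in Paeonia High, CCN2 at 90.2 and 217.6, and ACSS2 at 100.2 and 271.1. Paeonia High itself stood apart from the pool over all genes, at a root mean square log2 distance of 0.459. Angelica High lay above all 3 vehicle libraries in 17 of the 18 higher genes, all but SRXN1. It lay below all 3 in 20 of the 21 lower genes, all but SERPINA11. Over all genes 35.1% lay above and 38.3% below. With vehicle as the reference, 6 of the 39 lost their call: ALDH1A1, FABP1, SRXN1, TFPI, PRKAR1A and SERPINA11.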

How the data were processed

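RNA was sequenced from 60 HepG2 cultures as directional mRNA libraries, per the labels. Per the submitters' processing notes, reads were handled with FastQC 0.11.9, Trim Galore 0.6.5, STAR 2.7.3a and RSEM 1.3.3 on GRCh38 (hg38); annotation release and strand setting are not given in the sources used here. The authors deposited gene-level expected counts, not normalised, for 60675 genes. Of 270 sample columns 60 were used and 210 belong to no sample given here.

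Expected counts were rounded. Genes were kept by filterByExpr with each Angelica library as its own group (16128 kept), scaled by TMM and fitted by edgeR's quasi-likelihood method (edgeR 4.0.16, R 4.3.3), with 1 coefficient for the 17 Low libraries and 1 per Angelica library (16 residual degrees of freedom), and Benjamini-Hochberg adjustment over all genes at 0.05. All adjusted p-values come from this test unless another tool is named. Levels are CPM on TMM-scaled totals; log2 changes are edgeR's, and SE is the log2 change over the root of F. Medium over Low ratios used 0.1 CPM as pseudocount. The spread between the 17 Low libraries, a coefficient of variation of 6.65%, is the error; whether replicates were separate cultures is not stated. Differences of dose responses were fitted on all 60 libraries. On simulated counts of 15827 genes the High comparison recovered 80 of 100 genes changed by 0.5 and 100 of 100 changed by 1 on the log2 scale, with 15 unchanged genes called. All simulated libraries shared the pool mean and a trended dispersion, and only genes above a minimum level were changed. Extracts and set codes had no levels of their own there, so these rates may not hold for the real libraries.

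Gene lists, markers and the rule for named genes (called genes with 1 CPM or more, the largest changes each way with the same direction at Medium, called list members and AhR targets) were chosen with earlier results of these data known. Other genes named were picked after their values were seen. Some list members are counted but not reported here by name, nor drawn. Coordinates and symbols follow GENCODE 29 and the gene name table. Alternatives tried are RLE scaling, no filter, mitochondrial genes left out, DESeq2 1.42.0, other references, and libraries or extracts left out.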

Additional observations from a re-analysis of the deposited data

How the results depend on the processing

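The 39 calls at Angelica High became 40 with RLE scaling, 41 without mitochondrial genes, 39 with no filter, 125 (52 higher, 73 lower) with DESeq2, 72 (32 and 40) with 1 coefficient per Low group, and 26 with the Low libraries of replicate number 1 alone; DESeq2 called 38 of the 39 and the per-group fit 38. Against other references the count was 42 with Paeonia Low added, 2414 with vehicle and, chosen after seeing the data, 3106 with Paeonia High, where AKR1B10 (-0.17), GCLM (-0.019) and SRXN1 (-0.19) reversed; the cause was not tested. Medium gave 1 with no filter, with DESeq2 and per group, and 1489 against vehicle. Low gave 0 without mitochondrial genes, with DESeq2, with replicate number 1 alone and with Paeonia Low added, 2 per group and 545 against vehicle. The mean of 3 doses gave 21 with DESeq2 and per group, 1 with replicate number 1 alone and 4062 against vehicle. High against Angelica Low gave 1 with no filter, 31 with DESeq2, 13 per group and 16 with replicate number 1 alone. The difference of dose responses gave 102 with no filter, 780 with Poria and Glycyrrhiza added to Atractylodis and ginseng, and 0 under the other settings run.

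Leaving out 1 library or 1 extract gave 22 to 73 calls at High, 0 to 1 at Medium, 0 to 2 at Low, 3 to 17 for the mean and 0 to 10 for High against Angelica Low. CYP24A1, TSKU, ABCC3, AKR1C2, SGK1, FST, ACSS2 and HMGCS1 kept their call at High under all 34 alternatives run for single genes.

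With the replicate number as a block (a replicate block), High gave 19 calls (11 higher, 8 lower), Medium 0, Low 0, the mean 2 and High against Angelica Low 0. Of the 39 genes called at High, 21 lost their call, among them CYP1A1, NQO1, PIR, SRXN1, MVD, TM7SF2, FDPS and MSMO1. Low libraries of different extracts with the same number correlated at -0.085 to 0.114 in their deviations. Those with different numbers correlated at -0.097 to 0.126. The pairs were taken over all set codes together. Whether libraries with the same number and the same set code have more in common was not tested, so the block cannot be set aside.

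Each dose is 1 Angelica library, and the High library has the fewest counts of the 3. The extract cannot be told apart from its set code.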
